A study of Mus musculus with 6 samples.

Results

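The genes described here are Bcl3, Icam1 and members of the NF-kB pathway, read in mouse embryonic stem cells of strain C57Bl/6 after a short cytokine treatment. The list holds 10 genes, and a feature of the array counted as a member where the platform's annotation gives it exactly the symbol of a gene on the list. Of 34760 features on the array, 9 were members, 1 each for Bcl3, Icam1, Nfkb2, Rela, Relb, Nfkbia, Nfkbib, Nfkbie and Tnfaip3. Nfkb1, which encodes p105 and its product p50, was not analysed here. None of the 1321 features that carry several gene symbols shared a symbol with the list. Bcl3 and Icam1 were chosen by their log2 differences from control in these arrays, where both were higher after treatment, so their values are given as a description with no p-value. The other members were added for their place in the pathway.

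All cells carried, as a stable transgene, the receptor GRgp-Y118F. It is a chimera of the extracellular part of the receptor for granulocyte colony-stimulating factor (GCSF) and the intracellular part of gp130, the subunit that relays leukaemia inhibitory factor (LIF). The chimera carries the substitution Y118F, in which phenylalanine replaces a tyrosine. There were 2 arrays of cells treated for 1 h with GCSF, 2 arrays of cells treated for 1 h with LIF and PD0325901 at 1 uM, labelled LIF/PD, and 2 arrays of untreated controls. The growth medium of all cells held 10% fetal bovine serum. PD0325901 inhibits MEK, the kinase that activates ERK, and the treated cells had been without serum for 6 h beforehand. The labels do not say whether the controls were also without serum, or whether the line is a single clone.

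NF-kB is a family of dimeric transcription factors built from the subunits RelA, RelB, c-Rel, p50 and p52, the last of which are cut from the precursors p105 and p100. In resting cells inhibitor proteins of the IkB family hold most dimers in the cytoplasm, and the IkB kinase complex releases them by marking the inhibitors for degradation. BCL3 is an unusual IkB protein that acts in the nucleus on dimers of p50 or p52, and Bcl3 is also a known target of STAT3, the factor that gp130 activates. Embryonic stem cells are known for a weak NF-kB response while they stay undifferentiated.

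Values are log2 intensities as deposited, so a difference of 1 is a doubling of the signal. Array medians lay between 7.11 and 7.16. A feature was tested where its mean over the 6 arrays reached the 40th percentile, 6.70, which left 16912 features, and all 9 members were among them. Errors are standard errors of a difference from limma (n = 2 arrays per group), and a feature was called at a Benjamini-Hochberg adjusted p under 0.05 over all tested features. The labels do not name separate cultures for the replicates, so the p-values reflect the spread of these samples alone, and it may be technical. The 8 stem cell markers fixed for a check of the cell type, Pou5f1, Sox2 and Nanog among them, were all above the filter and had mean values of 11.97 to 12.04 per array. Of these, Tdgf1 was called higher in the arrays labelled GCSF than in the controls (0.30 ± 0.03), and Utf1 lower than in the arrays labelled LIF/PD (-0.23 ± 0.03), while Dppa5a, the highest in level, lay -0.06 ± 0.04 and 0.01 ± 0.04 from control.

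The labels need 1 caution. Dusp6 and Spry4, genes that ERK signalling keeps on, fell in the arrays labelled GCSF (log2 differences of -1.56 ± 0.04 and -1.83 ± 0.06 from control, adjusted p = 5.66e-07 and 4.03e-06 with limma). In the arrays labelled LIF/PD, where MEK was to be inhibited, they lay 0.03 ± 0.04 and 0.05 ± 0.06 from control. The values under the label LIF/PD go against that label. The label GCSF names no MEK inhibitor, and whether the fall from control there goes against it cannot be told, because the controls' serum is not stated. Both treated groups had been without serum, and between them the controls play no part. The arrays labelled GCSF differed from those labelled LIF/PD by -1.59 ± 0.04 for Dusp6 and -1.88 ± 0.06 for Spry4. The genes were thus lower where no MEK inhibitor is named, so the 2 treated labels conflict. Whether they are exchanged was not tested. Both labels are kept as given, and every direction below holds for the arrays that carry the label. Socs3, a direct STAT3 target, rose under both labels, by 3.13 ± 0.07 and 2.62 ± 0.07.

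Bcl3 had the widest span of the 9 genes. Its log2 intensity was 9.75 and 9.79 in the arrays labelled GCSF, 8.97 and 8.97 in the arrays labelled LIF/PD, and 8.40 and 8.44 in the controls. The 3 groups did not overlap, and arrays of the same group lay at most 0.04 apart. The difference from control was 1.35 ± 0.05 in the arrays labelled GCSF, a 2.55-fold higher signal, and 0.55 ± 0.05 in those labelled LIF/PD, a 1.46-fold higher signal. Ranked from the highest rise among the 16912 features, Bcl3 stood at place 4 under the label GCSF and at place 8 under the label LIF/PD. Between the treated groups it was 0.80 ± 0.05 higher in the arrays labelled GCSF.

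Icam1 encodes the cell surface adhesion molecule to which leukocyte integrins bind. Its values were 9.31 and 9.21 in the arrays labelled GCSF, 8.89 and 8.72 in those labelled LIF/PD, and 8.25 and 8.35 in the controls. The order of the groups was that of Bcl3, again with no overlap, but arrays of a group lay up to 0.18 apart. It differed from control by 0.96 ± 0.07 (1.95-fold) under the label GCSF and by 0.51 ± 0.07 (1.42-fold) under the label LIF/PD, and from one treated group to the other by 0.45 ± 0.07, higher in the arrays labelled GCSF. The 95% confidence intervals of the differences from control ran from 1.24 to 1.45 for Bcl3 and from 0.80 to 1.13 for Icam1 under the label GCSF. Under the label LIF/PD they ran from 0.44 to 0.65 and from 0.34 to 0.67, so the intervals of the genes overlapped there.

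**Figure D1:**
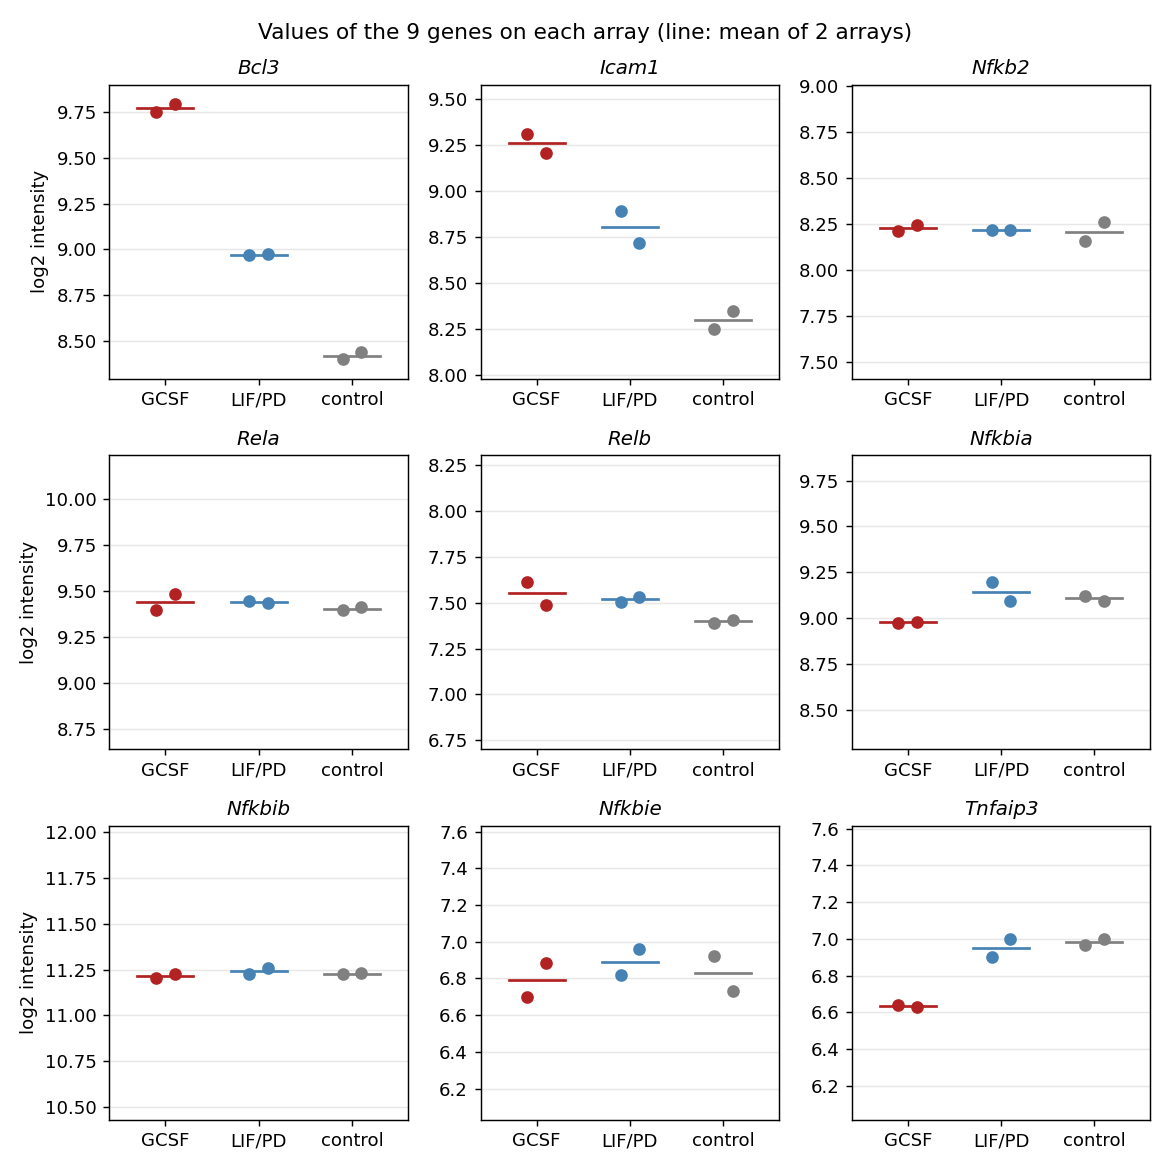
Log2 intensity (vertical axis, of the same length in log2 units in every panel) of the 9 genes on the 2 arrays labelled GCSF, the 2 labelled LIF/PD and the 2 controls, with points for arrays and lines for group means. Bcl3 and Icam1 separate into 3 levels, Tnfaip3 is lower in the arrays labelled GCSF only, and the points of the remaining genes lie within 0.3 of each other.

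The promoters of both genes are shown because the exact motif matches found in them differ. Each window covers 250 bases before to 50 after the annotated start, from RefSeq on GRCm38.p6, printed on the strand of the gene. Windows were searched on both strands for TTCNNNGAA, the palindrome that STAT dimers bind, and for the consensus site of NF-kB. Capitals mark the matches. Of all 32851 promoter windows in the table, 8.3% held TTCNNNGAA and 4.51% held the NF-kB consensus. The windows lie at chr7:19822706-19823005 (minus strand) for Bcl3 and at chr9:21015690-21015989 (plus strand) for Icam1.
Bcl3: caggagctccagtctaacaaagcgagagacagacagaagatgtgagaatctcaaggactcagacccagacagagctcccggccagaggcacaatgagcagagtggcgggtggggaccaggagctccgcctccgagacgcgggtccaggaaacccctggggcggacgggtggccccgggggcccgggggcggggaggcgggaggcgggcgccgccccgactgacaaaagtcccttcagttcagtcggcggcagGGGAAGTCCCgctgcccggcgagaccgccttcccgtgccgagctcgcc
Icam1: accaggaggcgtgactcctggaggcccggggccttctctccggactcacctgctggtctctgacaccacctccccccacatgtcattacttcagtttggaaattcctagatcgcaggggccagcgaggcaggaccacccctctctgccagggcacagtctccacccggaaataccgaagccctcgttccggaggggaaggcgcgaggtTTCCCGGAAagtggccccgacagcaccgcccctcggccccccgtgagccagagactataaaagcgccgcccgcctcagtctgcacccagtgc
In the Icam1 window the palindrome TTCCCGGAA begins 42 bases before the start, and no exact match to the NF-kB consensus was found. That window does hold TGGAAATTCC, which departs from the consensus in its first base alone, and such near matches were not counted. The Bcl3 window held GGGAAGTCCC just after the start, a match to the NF-kB consensus on the opposite strand, and no TTCNNNGAA.

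In all, 2 of the 9 members, Bcl3 and Icam1, were called higher in the arrays labelled GCSF against control, where 1.17% of all features were called and 0.804% were called higher. Under the label LIF/PD only Bcl3 was called higher, against 0.065% of all features called and 0.0591% called higher, and Icam1 did not pass. Both genes were called higher in the arrays labelled GCSF than in those labelled LIF/PD, where 0.846% of features were called and 0.443% were called higher. Since these genes were listed for their rise, the counts describe the choice and nothing is read from them. The 2 comparisons against control share the control arrays. Without either control array or either LIF/PD array the call of Bcl3 under the label LIF/PD was lost, with differences of 0.53 to 0.57, and that of Icam1 between the treated groups was lost whichever of the 6 arrays was left out, with differences of 0.37 to 0.54.

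The other 7 members did not pass in any comparison. Their median difference was -0.01 under the label GCSF and 0.04 under the label LIF/PD, beside 0.01 and 0.01 over all tested features. Of these 7, 4 had an adjusted p above 0.8 under the label GCSF, and all 7 had one under the label LIF/PD. The share of all features above that value was not counted, so nothing is read from these counts. Arrays of the groups did not overlap for 3 of the 7 under the label GCSF, Relb above control and Nfkbia and Tnfaip3 below it, while 41.8% of all features did not overlap in either direction. Under the label LIF/PD this held for Rela and Relb, both above control, against 38.4% of all features, and between the treated groups for Nfkbia and Tnfaip3, both lower in the arrays labelled GCSF, against 41.5%.

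Among the subunits, Rela encodes RelA (p65), the main activating subunit of the canonical pathway. Rela had values of 9.40 and 9.48 in the arrays labelled GCSF, 9.45 and 9.43 in those labelled LIF/PD, and 9.39 and 9.41 in the controls. The spread between the GCSF arrays was wider than the differences from control, 0.04 ± 0.05 and 0.04 ± 0.05. Nfkb2 encodes p100, the precursor of the BCL3 partner p52. Its values were 8.21 and 8.24, 8.22 and 8.22, and 8.15 and 8.26 in the arrays labelled GCSF, those labelled LIF/PD and the controls, and its differences from control were 0.02 ± 0.06 and 0.01 ± 0.06. The controls enclosed all treated arrays. For Rela and Nfkb2 the intervals of both differences lay between -0.13 and 0.16, which bounds any change at this number of arrays.

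Relb encodes the subunit that pairs with p52 in the noncanonical pathway. Relb stood at 7.61 and 7.49 in the arrays labelled GCSF, 7.50 and 7.53 in those labelled LIF/PD, and 7.39 and 7.41 in the controls. Every treated array lay above both controls, as for 10.8% of all features. The differences of 0.15 ± 0.07 (adjusted p = 0.433 with limma) and 0.12 ± 0.07 (adjusted p = 0.808) did not pass. The remaining subunit gene, Rel, which encodes c-Rel, was in the wider list of the pathway. It had 9.31 and 9.10 in the arrays labelled GCSF, 9.03 and 9.10 in those labelled LIF/PD, and 8.86 and 8.95 in the controls, with differences of 0.30 ± 0.07 (adjusted p = 0.136) and 0.16 ± 0.07 (adjusted p = 0.764). Those also did not pass.

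**Figure D2:**
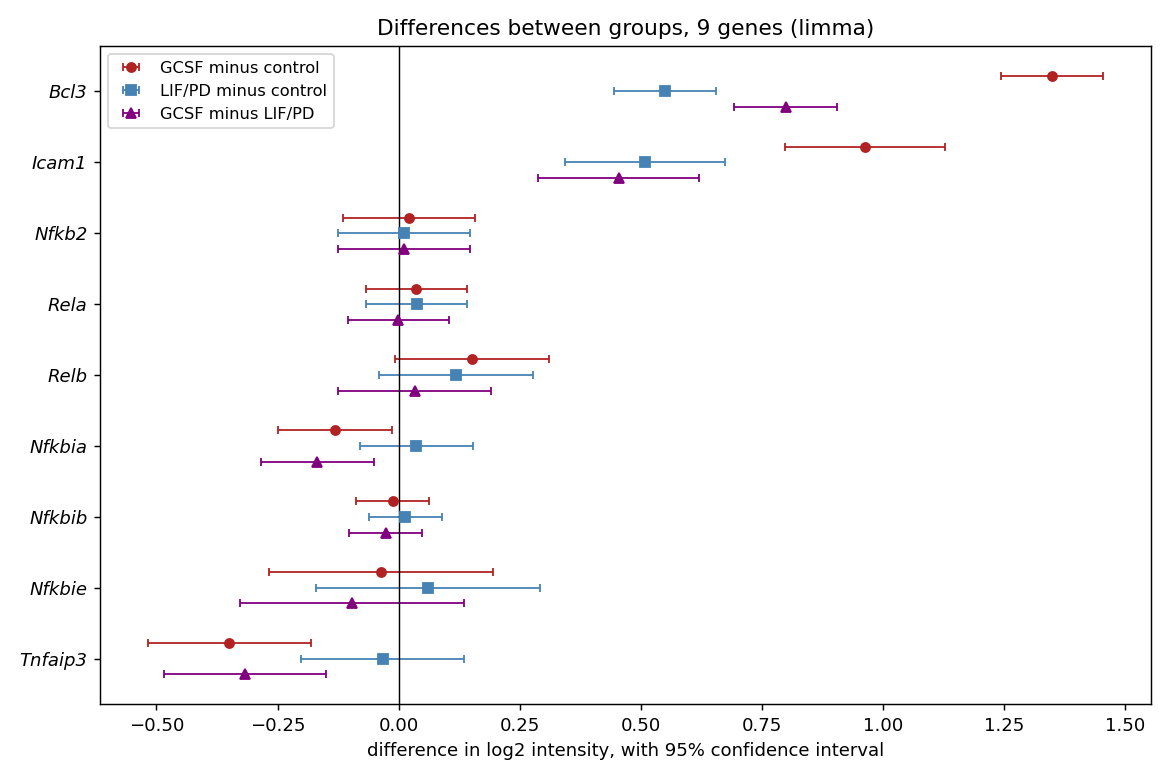
Differences in log2 intensity (horizontal axis) with their 95% confidence intervals from limma, for GCSF minus control, LIF/PD minus control and GCSF minus LIF/PD in each of the 9 genes. The intervals of Bcl3 and Icam1 lie above 0 in all 3 comparisons, but these genes were listed for their rise in these arrays, so nothing is read from that. The intervals of Tnfaip3 and Nfkbia lie below 0 in both comparisons that involve the arrays labelled GCSF. No interval is adjusted for the number of features.

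Of the inhibitors, Nfkbia encodes IkB-alpha, which NF-kB itself induces as rapid feedback. Its values were 8.98 and 8.98 in the arrays labelled GCSF, 9.20 and 9.09 in those labelled LIF/PD, and 9.12 and 9.09 in the controls. Both GCSF arrays lay below all others. The difference from control was -0.13 ± 0.05 (adjusted p = 0.36 with limma) and that from the arrays labelled LIF/PD -0.17 ± 0.05 (adjusted p = 0.228), neither of which passed. In the arrays labelled LIF/PD it lay 0.04 ± 0.05 from control.

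Nfkbib encodes IkB-beta. The 6 values ran from 11.21 in an array labelled GCSF to 11.26 in an array labelled LIF/PD, with the controls at 11.23 and 11.23. Its differences were -0.01 ± 0.03 and 0.01 ± 0.03, the smallest errors of the 9 genes, and the intervals lay between -0.09 and 0.09. Nfkbie encodes IkB-epsilon. It had 6.70 and 6.89 in the arrays labelled GCSF, 6.82 and 6.96 in those labelled LIF/PD, and 6.92 and 6.73 in the controls. These values sat close to the filter and the groups overlapped, with differences of -0.04 ± 0.10 and 0.06 ± 0.10. An interval from -0.27 to 0.19 under the label GCSF leaves the direction undetermined.

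Tnfaip3 encodes A20, a ubiquitin-editing enzyme that shuts off signalling towards the IkB kinases and is itself an NF-kB target. Its log2 intensity was 6.64 and 6.63 in the arrays labelled GCSF, 6.90 and 7.00 in those labelled LIF/PD, and 6.97 and 7.00 in the controls. Both GCSF arrays lay below the other 4, and below the filter level of 6.70 that the gene passed by its mean of 6.86. The difference was -0.35 ± 0.07 from control (adjusted p = 0.0792 with limma) and -0.32 ± 0.07 from the arrays labelled LIF/PD (adjusted p = 0.12), so neither passed. Over the alternative settings that kept the gene, the adjusted p against control ran from 0.0425 to 0.305, and it passed only with variances fitted without an intensity trend. In the arrays labelled LIF/PD the gene lay -0.03 ± 0.07 from control.

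The promoters of Nfkb2, Nfkbia and Tnfaip3 are shown because all hold matches to the NF-kB consensus close to the start, while none of these genes was called. They come from the same RefSeq table and build, with capitals as above, and lie at chr19:46304487-46304786 (plus strand), chr12:55492598-55492897 (minus strand) and chr10:19015361-19015660 (minus strand).
Nfkb2: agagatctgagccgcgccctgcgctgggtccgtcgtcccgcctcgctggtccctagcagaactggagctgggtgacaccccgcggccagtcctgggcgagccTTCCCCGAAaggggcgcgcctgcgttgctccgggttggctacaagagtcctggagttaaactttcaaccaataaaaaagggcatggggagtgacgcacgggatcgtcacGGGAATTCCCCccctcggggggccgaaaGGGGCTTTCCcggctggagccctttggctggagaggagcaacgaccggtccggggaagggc
Nfkbia: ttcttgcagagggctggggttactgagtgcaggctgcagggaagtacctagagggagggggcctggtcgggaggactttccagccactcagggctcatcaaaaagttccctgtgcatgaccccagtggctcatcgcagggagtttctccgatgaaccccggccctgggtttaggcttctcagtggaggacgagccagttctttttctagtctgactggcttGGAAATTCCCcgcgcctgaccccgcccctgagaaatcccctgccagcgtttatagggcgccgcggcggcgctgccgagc
Tnfaip3: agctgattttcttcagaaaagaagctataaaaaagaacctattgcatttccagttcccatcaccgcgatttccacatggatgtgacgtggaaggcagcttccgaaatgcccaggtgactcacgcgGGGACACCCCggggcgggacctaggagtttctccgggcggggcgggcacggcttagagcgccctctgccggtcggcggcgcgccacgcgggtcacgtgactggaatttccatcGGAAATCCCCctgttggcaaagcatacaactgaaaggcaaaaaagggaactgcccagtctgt
Beginning 29 bases before its start, Nfkbia held GGAAATTCCC, read on the opposite strand. The first of 3 Nfkb2 windows held 3 matches, GGGAATTCCC and GGAATTCCCC, which overlap by all but a base, and GGGGCTTTCC 11 bases before the start. The same window held TTCCCCGAA, a match to TTCNNNGAA, 148 bases before the start. The other Nfkb2 windows, which overlap each other, share GGGACTTTCC. In the first of 2 Tnfaip3 windows the matches began 125 and 12 bases before the start. Over all members, 8 had 11 windows in the table. Windows with the NF-kB consensus belonged to 5 of them, namely Bcl3, Nfkb2, Nfkbia, Nfkbie and Tnfaip3, and windows with TTCNNNGAA to 2, Icam1 and Nfkb2. Rela and Nfkbib had no exact match to either motif in their windows, and a match describes letters only.

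The wider pathway was read through 7 lists of other genes, 110 in all, of which 86 were tested. With limma 2 rose and 2 fell under the label GCSF and 82 did not pass, which makes 4.65% called, beside 1.17% of all features. At an unadjusted p under 0.05 there were 12 of the 86, close to the 12.1% of all features at that threshold. Under the label LIF/PD none of the 86 passed, 7 had an unadjusted p under 0.05, and 6.59% of all features did. The median difference was 0.03 under the label GCSF and 0.02 under the label LIF/PD, beside 0.01 over all tested features in both.

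All 4 calls fell among the textbook target genes, of which 19 of 30 were tested. Gadd45b, a stress-response gene of the GADD45 family, had 9.03 and 9.14 in the arrays labelled GCSF, 8.73 and 8.71 in those labelled LIF/PD, and 8.53 and 8.63 in the controls. It rose by 0.50 ± 0.06 under the label GCSF (adjusted p = 0.00437) and differed by 0.14 ± 0.06 under the label LIF/PD. Between the treated groups Gadd45b was called higher in the arrays labelled GCSF, by 0.36 ± 0.06 (adjusted p = 0.0354 with limma). Sod2, the mitochondrial superoxide dismutase gene, had 12.00 and 11.99 in the arrays labelled GCSF, 11.92 and 11.88 in those labelled LIF/PD, and 11.81 and 11.78 in the controls. Its rise of 0.20 ± 0.03 (adjusted p = 0.0291) was small, and at 0.10 ± 0.03 under the label LIF/PD it did not pass. In both genes all treated arrays lay above the controls.

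The genes that fell were Ccl2 and Plau. Ccl2, which encodes a monocyte-attracting chemokine, had 10.39 and 10.38 in the arrays labelled GCSF, 10.94 and 10.81 in those labelled LIF/PD, and 10.84 and 10.83 in the controls. Plau, the urokinase gene, had 7.67 and 7.67, 8.17 and 8.21, and 8.00 and 8.07 in the same order. Only the arrays labelled GCSF were low in these genes, as in Tnfaip3. Ccl2 fell by 0.45 ± 0.05 (adjusted p = 0.0022) and Plau fell by 0.36 ± 0.06 (adjusted p = 0.0299) against control, and both were also lower than in the arrays labelled LIF/PD (-0.49 ± 0.05 and -0.52 ± 0.06, adjusted p = 0.00287 and 0.0071). The adhesion gene Vcam1 lay -0.01 ± 0.05 and the chemokine gene Cxcl1 -0.01 ± 0.09 from control under the label GCSF. Cytokine genes that classical NF-kB activation induces, Il6, Tnf, Il1b and Csf2, lay below the filter. Tnf had 6.32 and 6.54 in the arrays labelled GCSF, 6.91 and 6.76 in those labelled LIF/PD, and 6.82 and 6.81 in the controls. Il6, Il1b and Csf2 lay 0.31, -0.02 and 0.13 from control under the label GCSF. The direction was thus not shared, and none of these cytokine genes was tested.

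**Figure D3:**
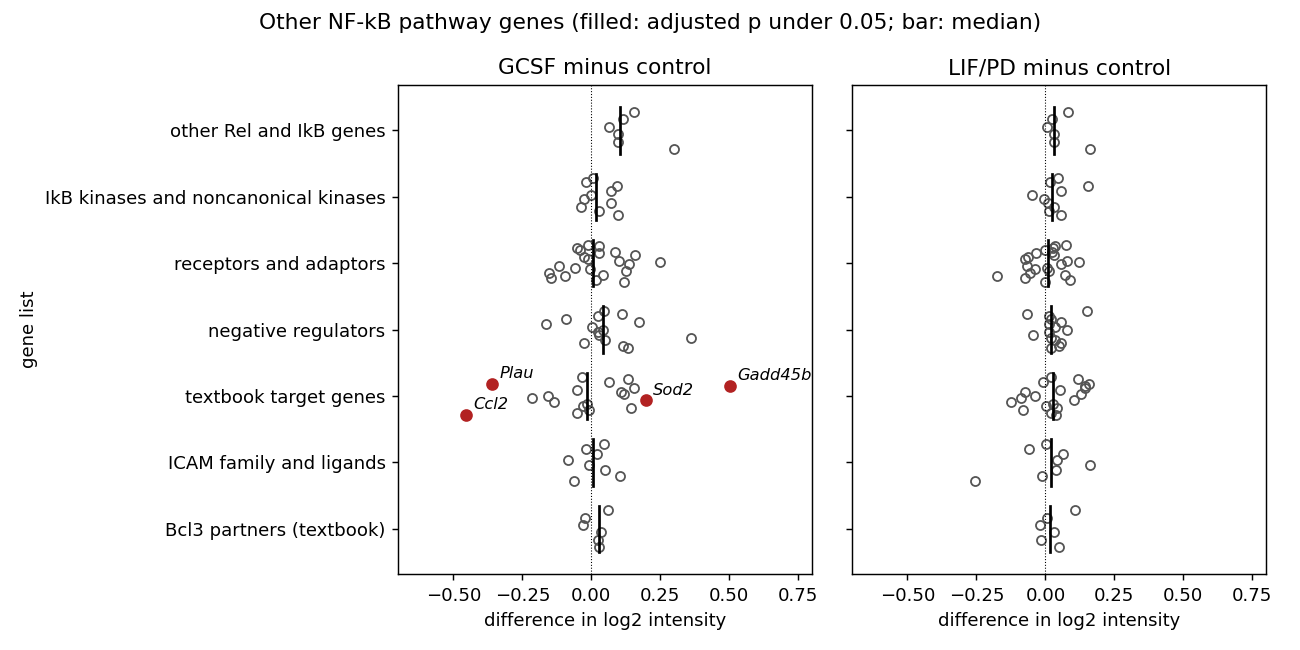
Difference in log2 intensity (horizontal axis) of each tested gene in 7 lists of other NF-kB pathway genes, for GCSF minus control on the left and LIF/PD minus control on the right, with filled points for adjusted p under 0.05 and bars for list medians. The only filled points are Gadd45b, Sod2, Ccl2 and Plau on the left.

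The upstream parts of the pathway gave no call. Of 12 genes for IkB kinases and related kinases 10 were tested, with differences from -0.04 to 0.10 under the label GCSF and from -0.05 to 0.16 under the label LIF/PD. In limma 0 and 1 of them had an unadjusted p under 0.05. Of 29 receptors and adaptors 22 were tested, of which 3 and 1 had an unadjusted p under 0.05, as had 12.1% and 6.59% of all features. The largest difference there under the label GCSF was that of Myd88, the adaptor of Toll-like and interleukin-1 receptors, at 0.25 ± 0.06 (adjusted p = 0.15) and 0.12 ± 0.06 under the labels GCSF and LIF/PD. Among 15 tested negative regulators Tnip2, which encodes a partner of A20, came nearest to a call. It had 7.27 and 7.27 in the arrays labelled GCSF, 6.95 and 6.90 in those labelled LIF/PD, and 6.90 and 6.91 in the controls, a difference of 0.36 ± 0.07 (adjusted p = 0.0504) under the label GCSF and 0.02 ± 0.07 under the label LIF/PD.

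All 6 genes on the list of other Rel and IkB genes had positive differences under the label GCSF, from 0.06 to 0.30. The median was 0.11, beside 0.01 over all tested features, and none of the 6 passed. The share of all features with a positive difference was not counted, so nothing is read from the shared direction. Besides Rel the list included the nuclear IkB genes Nfkbid (0.10 ± 0.08 and 0.03 ± 0.08) and Nfkbiz (0.10 ± 0.07 and 0.03 ± 0.07), which encode relatives of BCL3. No call was made among 6 tested Bcl3 partners, whose differences lay between -0.03 and 0.06 under the label GCSF. Neither was any made among 8 tested genes of the ICAM family and its ligands. In that list Icam5, which lies close to Icam1, differed by 0.10 ± 0.07 and -0.01 ± 0.07, Icam2 by -0.06 ± 0.15 and -0.26 ± 0.15, and the integrin genes Itgal and Itgb2, whose product binds ICAM1, by 0.05 ± 0.10 and -0.08 ± 0.09 under the label GCSF. For other Rel and IkB genes, Bcl3 partners and the ICAM list, 1, 0 and 0 members had an unadjusted p under 0.05 with limma under the label GCSF, and 0, 0 and 1 under the label LIF/PD.

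Of the 7 lists, the member of highest level was called under the label GCSF in the textbook targets, where it was Sod2, and in no other list. N4bp1 among the negative regulators differed by 0.17 ± 0.04 (adjusted p = 0.117 with limma) and 0.05 ± 0.04. Nkrf, on the list of other Rel and IkB genes but of neither family, differed by 0.16 ± 0.08 and 0.08 ± 0.08. Tab2 differed by 0.07 ± 0.04 and 0.06 ± 0.04. Bcl10 differed by -0.01 ± 0.04 and 0.07 ± 0.04, Msn by -0.02 ± 0.04 and -0.06 ± 0.04, and Hdac1, which encodes a histone deacetylase, by 0.03 ± 0.03 and 0.03 ± 0.03.

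Markers of other cells were read beside these values. All 8 macrophage markers were tested, and with limma 2 had an unadjusted p under 0.05 under the label GCSF, beside 12.1% of all features. None passed, and all 8 differences from control were negative under that label, from -0.20 to -0.01. The share of all features with a negative difference was not counted, so nothing is read from this count. The mean log2 intensity of the 8 markers was 8.61 to 8.63 in the arrays labelled GCSF, 8.73 to 8.79 in those labelled LIF/PD, and 8.68 to 8.73 in the controls. The fall of Ccl2 and the low values of Tnfaip3 and Tnf went the same way. Gadd45b, Sod2 and Il6 went the other way under the label GCSF, by 0.50, 0.20 and 0.31 from control. The part of the markers in any of these values was not tested. Fewer cells of a type and less RNA per cell cannot be told apart in bulk samples. The 8 feeder fibroblast markers, also all tested, averaged 10.57 in both arrays labelled GCSF, 10.53 to 10.54 in those labelled LIF/PD, and 10.52 to 10.56 in the controls, and Col3a1 alone was called (0.29 ± 0.05, adjusted p = 0.041, under the label GCSF). Of 7 endothelial markers 3 were tested and none was called, while Cdh5, Kdr, Tie1 and Emcn lay below the filter. Of 6 primitive endoderm markers 5 were tested and Lama1 was called, higher under the label GCSF (0.43 ± 0.05, adjusted p = 0.00437). The marker of highest level in each list lay between -0.07 and 0.03 from control under the label GCSF, namely Lyz2 of macrophages (-0.07 ± 0.03), Fn1 of fibroblasts (0.03 ± 0.04), Egfl7 of endothelium (-0.07 ± 0.06) and Dab2 of primitive endoderm (-0.01 ± 0.05).

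Genes next to the members on the chromosome gave no call against control. Taking the nearest 3 protein-coding genes on each side in the RefSeq annotation of GRCm38.p6, 37 of 54 neighbours were tested and none was called with limma against control under either label. Their differences lay between -0.13 and 0.13 under the label GCSF and between -0.14 and 0.20 under the label LIF/PD, and 3 and 1 of them had an unadjusted p under 0.05, beside 12.1% and 6.59% of all features. Bcl3, Relb and Nfkbib lie on chromosome 7. Next to Bcl3, Cblc differed by -0.03 ± 0.07 and Bcam by -0.06 ± 0.05 under the label GCSF. Next to Icam1, on chromosome 9, Mrpl4 differed by -0.05 ± 0.04, and Icam4 lay below the filter.

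The profiles most like those of Bcl3 and Icam1 were sought among 276 features with 1 gene symbol whose group means spanned at least 0.3. Likeness was Pearson's r over the 6 arrays, which all features share, so it mainly reflects the order of the 3 groups and is given as a description. For Bcl3 the 5 highest were Helb (r = 0.998), Epha4 (0.997), Slc1a4 (0.995), Gcnt2 (0.995) and Sbno2 (0.994). Helb differed from control by 0.41 ± 0.04 and 0.15 ± 0.04 under the labels GCSF and LIF/PD, and Sbno2 by 0.74 ± 0.06 and 0.32 ± 0.06. For Icam1 they were Ildr1 (0.993), D730005E14Rik (0.992), the oncostatin M receptor gene Osmr (0.991), Irak3 (0.991), a negative regulator of Toll-like receptor signalling, and Gadd45g (0.990). Irak3 had 9.40 and 9.43 in the arrays labelled GCSF, 9.16 and 9.06 in those labelled LIF/PD, and 8.79 and 8.89 in the controls, and Gadd45g had 8.90 and 8.84, 8.47 and 8.46, and 8.03 and 8.03. Bcl3 and Icam1 had r = 0.976 with each other, which put Icam1 at place 30 for Bcl3 and Bcl3 at place 15 for Icam1.

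**Figure D4:**
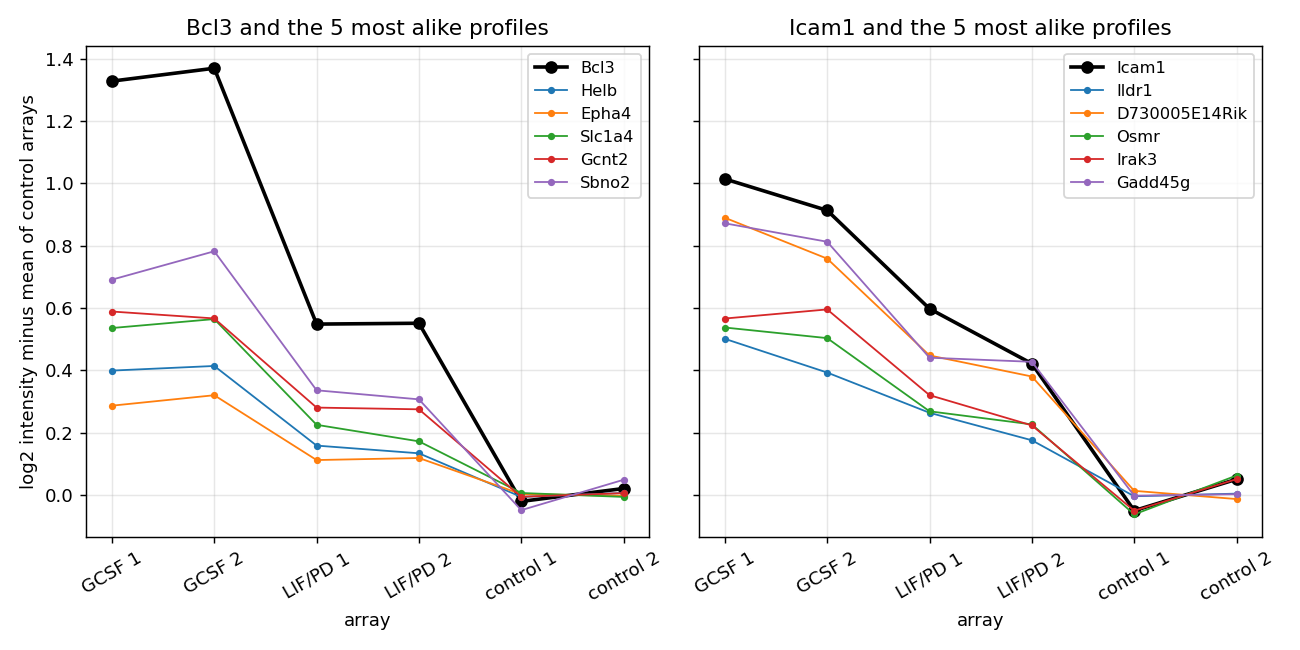
Log2 intensity minus the mean of the 2 control arrays (vertical axis) on each of the 6 arrays, for Bcl3 on the left and Icam1 on the right in black, with the 5 most alike profiles in colour. All are highest in the arrays labelled GCSF and intermediate in those labelled LIF/PD, and Bcl3 spans more than any of the 5 beside it.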

How the data were processed

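Per the labels' protocols, RNA was prepared with TRIzol and carried a biotin label on 1-colour arrays. The deposited table holds 34760 features on 6 arrays. The authors deposited values that run from 2.29 to 14.50 and were taken to be log2 intensities from that range, since the log base, background correction, summarization and normalization are not given in the sources used here. They were used without further normalization. The number of arrays limits the precision.

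Features were named through the platform's annotation. The 6573 features below the first annotated identifier, an unnamed control block, were left out, and the filter at the 40th percentile of the mean was applied to the other 28187. Group means were fitted to all 6 arrays with limma 3.58.1 in R 4.3.3, with an intensity trend in the variances (3 residual and 8.4 total degrees of freedom), and two-sided p-values were adjusted with the Benjamini-Hochberg method. An exact permutation test of 2 against 2 arrays cannot go below p = 0.333.

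The members and lists were chosen with earlier results of these data known. Named were the members, every called gene of the lists, the gene of highest level in each, label checks, the 5 most alike profiles, and further list genes picked after their values were seen. On simulated data for GCSF against control over 16912 features, 64.4%, 99.3% and 100% of changes of 0.3, 0.6 and 1 log2 were recovered, with 9.08% of calls false, so the adjusted p was somewhat too small there. The simulation drew independent normal values with the variances of the limma fit and changed 200 features. Its shares need not hold for the real arrays. Alternatives are given in the closing section.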

Additional observations from a re-analysis of the deposited data

How the results depend on the processing

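With 2 arrays per group some small differences can be missed: on simulated data with independent normal values 64.4% of changes of 0.3 log2 were recovered. No difference of a member that was called changed its direction under any alternative. Most member calls counted below are of Bcl3 and Icam1, which were listed for their rise in these arrays. Their counts describe that choice, and nothing is read from them. Under the label GCSF, 2 members were called against control under every setting except without an intensity trend, which gave 3, with Tnfaip3 added, and at an unadjusted p under 0.05, which gave 4, and 2 were called whichever array was left out. Under the label LIF/PD the 1 call became 2 with median centring of each array, 0 without an intensity trend and 2 at an unadjusted p, and ran from 0 to 1 with an array left out. Between the treated groups the 2 calls became 1 with only the 4 arrays compared, without an intensity trend, with the control block median as a covariate and whichever array was left out, and 4 at an unadjusted p. That median was 6.84 and 6.71 in the arrays labelled GCSF, 6.58 and 6.68 in those labelled LIF/PD, and 6.66 and 6.71 in the controls. When an array is left out, the remaining one is assumed to vary like the other groups. The cause of these shifts was not tested.

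Same-numbered arrays are not said to share a culture, and their deviations correlated at 0.01, 0.08 and 0.10. With the replicate number as a replicate block 2, 1 and 2 members and 195, 9 and 165 features were called in the 3 comparisons, against 198, 11 and 143 without it. The 198 features called for GCSF became 125 without an intensity trend, 99 with the covariate, 2049 at an unadjusted p and 88 to 164 with an array left out. The 11 called for LIF/PD became 17 with median centring, 1 without a trend, 1114 at an unadjusted p and 1 to 7 with an array left out. The 143 between the treated groups became 82 with only 4 arrays, 71 without a trend, 26 with the covariate, 1994 at an unadjusted p and 30 to 91 with an array left out. There, 75 were higher and 68 lower in the arrays labelled GCSF, and 57 and 111 with median centring.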
